A study of Mus musculus with 14 samples.

Results

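The genes described here are 67 chromatin modifiers of mouse bone marrow-derived macrophages (BMDMs), picked by a naming rule from 25239 gene symbols. They are the lysine demethylases Kdm1 to Kdm8, the Kmt2 and Setd methyltransferases, the histone deacetylases of the Hdac family, the chromobox (Cbx) proteins, the Polycomb ring finger proteins Pcgf1 to Pcgf6, the Asxl proteins, the Dnmt3 genes, and Ring1, Rnf2 and Bap1. The rule uses no measured value. Of the 67 genes, 65 had counts enough to be tested. Asxl3 was listed at 0 in all libraries except KO library 3 in conditioned medium, at 0.033 CPM (counts scaled to a library total of 1 M, that is 1 mega-count, with TMM factors), and Kdm4d never exceeded 0.1 CPM. The ring finger gene of the family that is listed as Bmi1 did not match the naming rule and is not among them.

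BMDMs are macrophages grown in culture from marrow precursors. There were 2 genotypes, Ezh2fl/fl;LysM-Cre+/- cells (KO) and cells of littermate controls (WT), each kept for 24 h in complete DMEM (control medium) or in conditioned medium (CM) taken from the mouse hepatoma line Hepa1-6. The groups comprised 4 WT libraries in control medium, 4 WT libraries in CM, 3 KO libraries in control medium and 3 KO libraries in CM. All groups had been grown beforehand for 7 to 10 days with L929 cell conditioned medium. Cre is driven by the lysozyme M gene, which is active in myeloid cells, so deletion need not be complete in a culture. The alleles of the littermates are not given beyond the name WT, and no medium conditioned by a cell other than Hepa1-6 is analysed here. Whether the libraries within a group stem from separate mice or cultures is not stated, and p-values reflect only how these libraries vary, which may be technical.

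Polycomb silencing works through complexes that write, read and erase marks on histone tails. PRC2, whose catalytic subunit is Ezh2, methylates lysine 27 of histone H3 (H3K27me3), the canonical form of PRC1 reads that mark through a Cbx subunit, and the E3 ligases Ring1 and Rnf2 in PRC1 add ubiquitin to histone H2A. Other enzymes act against or beside this system. Kdm6a and Kdm6b remove H3K27 methylation, and the deubiquitinase Bap1 with an Asxl partner removes the ubiquitin. Kdm2b takes a variant PRC1 to CpG islands, and the Kmt2a to Kmt2d and Setd1 enzymes write H3K4 methylation at promoters and enhancers. In macrophages, Kdm6b is known as a demethylase induced by inflammatory signals, and Hdac4, Hdac5, Hdac7 and Hdac9 as signal-responsive corepressors.

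Exon counts summed to 40.2 to 85.8 M per library, and the 67 genes held 0.307 to 0.347% of them. The labels were checked on a pair of neighbouring Ezh2 exons near its 3′ end, of 81 and 85 bases; the labels do not say which exons are floxed. Their counts per base were taken relative to Ezh2 exons that precede them in the transcript. They were 87.1 to 145.2% in WT control libraries and 81.1 to 123.5% in WT CM libraries. In KO they were 1.8 to 28.0% in control libraries and 6.3 to 16.7% in CM libraries. The 8 macrophage markers (among them Adgre1, Csf1r, Itgam and Lyz2) together held 19187 to 35653 CPM, while the summed markers of neutrophils, dendritic cells, T, B and NK cells, mast cells and basophils, erythroid cells, fibroblasts and hepatocytes each stayed at 3.805 CPM or below. Of the 8, Lyz2 is the locus that carries Cre. WT libraries 3 and 4 of both media stood apart from the other 10 libraries in how counts spread over the exons of a gene, and they were also the deepest (80.4 to 85.8 M against 40.2 to 61.5 M counts). All KO libraries resembled WT libraries 1 and 2 in this respect, so the called differences between genotypes below are also given with WT libraries 1 and 2 only.

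The starts of the genes with the clearest responses to CM are shown first, because CpG islands are where Kdm2b and its PRC1 bind. Each line holds the 250 bases before a RefSeq transcription start (GRCm38.p6), 5′ to 3′ on the strand of the gene, with CG dinucleotides in capitals.
Kdm2b, long form, chr5:122989100-122989349, minus strand: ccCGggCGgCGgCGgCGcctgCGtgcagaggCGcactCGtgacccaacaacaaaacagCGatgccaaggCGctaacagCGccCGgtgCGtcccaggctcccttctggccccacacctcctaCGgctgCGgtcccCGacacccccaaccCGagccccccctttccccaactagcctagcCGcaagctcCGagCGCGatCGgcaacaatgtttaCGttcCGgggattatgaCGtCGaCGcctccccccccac
Kdm2b, short form, chr5:122900351-122900600, minus strand: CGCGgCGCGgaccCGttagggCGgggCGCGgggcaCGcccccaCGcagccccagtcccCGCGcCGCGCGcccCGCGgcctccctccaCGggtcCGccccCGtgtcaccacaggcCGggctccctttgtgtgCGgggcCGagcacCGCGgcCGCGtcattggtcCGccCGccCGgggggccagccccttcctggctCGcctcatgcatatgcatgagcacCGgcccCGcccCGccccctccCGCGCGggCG
Cbx7, chr15:79932647-79932896, minus strand: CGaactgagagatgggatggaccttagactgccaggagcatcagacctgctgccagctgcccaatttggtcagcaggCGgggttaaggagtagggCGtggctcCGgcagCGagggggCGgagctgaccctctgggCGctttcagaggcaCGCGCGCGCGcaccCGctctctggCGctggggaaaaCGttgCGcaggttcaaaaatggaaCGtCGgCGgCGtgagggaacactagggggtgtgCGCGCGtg
Dnmt3a, full-length form, chr12:3806910-3807159, plus strand: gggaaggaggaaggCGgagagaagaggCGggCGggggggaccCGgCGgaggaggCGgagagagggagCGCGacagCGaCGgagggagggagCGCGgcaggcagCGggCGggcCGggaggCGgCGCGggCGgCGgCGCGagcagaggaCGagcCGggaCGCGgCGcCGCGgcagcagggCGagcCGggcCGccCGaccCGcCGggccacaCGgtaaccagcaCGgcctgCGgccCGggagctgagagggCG
Hdac9, chr12:34528890-34529139, minus strand: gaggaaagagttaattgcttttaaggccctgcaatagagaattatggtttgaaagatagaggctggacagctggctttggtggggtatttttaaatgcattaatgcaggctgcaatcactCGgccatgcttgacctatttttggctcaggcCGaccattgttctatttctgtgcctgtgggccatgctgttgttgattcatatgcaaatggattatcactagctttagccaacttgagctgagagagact

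Kdm2b spans chr5:122870664-122989270, Cbx7 chr15:79915804-79971143, Dnmt3a chr12:3801559-3914443 and Hdac9 chr12:34047580-34917095 in the same build. The long Kdm2b window held 27 CG dinucleotides, a number reached by 8.6% of all 32817 windows of this length. Its short-form window held 38 (reached by 1.9%), the Cbx7 window 23 (13.3%) and the Dnmt3a window 40 (1.3%). Hdac9 differed from these, with 2 CG in its window, as many as 81.2% of windows hold. The exon right after the Dnmt3a window had 8 counts over all 14 libraries, against 1602 in the next listed exon. The Dnmt3a window is thus not shown to be the start behind the Dnmt3a counts. Over the 70 windows that matched 51 of the 67 genes, the median was 20 CG, against 6 over all windows. Palindromic motifs, which read the same on both strands, were searched. CACGTG stood in 9 of the 70 windows (12.9%, against 6.0% of all windows), TGANTCA in 6 (8.6 against 6.8%), TTCNNNGAA in 7 (10.0 against 7.0%) and TGACGTCA in 1 (1.4 against 1.5%). Of the 5 windows printed, the Hdac9 window held TGANTCA and the others held none of the 4.

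Exposure to CM moved a minority of the chromatin modifiers, by small amounts, in both directions. In WT cells 18 of the 65 tested genes passed the test (edgeR quasi-likelihood F test, Benjamini-Hochberg adjusted p below 0.05 over all 13311 genes tested), 9 of them higher in CM and 9 lower. That is 27.7% of the members, where 37.3% of all tested genes were called, 19.3% higher and 18.0% lower. In KO cells 23 of 65 were called (35.4%), 10 higher and 13 lower, where 38.1% of all tested genes were called, 20.0% higher and 18.2% lower. The median log2 fold change of the members was -0.08 in WT and -0.05 in KO, against -0.01 over all genes in each genotype. One member changed by 1 or more on the log2 scale in either genotype, the barely expressed Dnmt3l, while 8.5% of all tested genes in WT and 10.5% in KO changed that much. Most members were robustly expressed: 61 of 67 had 1 CPM or more in every library and 47 had 10 CPM or more. Where 2 runs of values for 1 genotype follow each other below, control medium comes first and CM second.

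The 2 genotypes were tested in separate libraries, and 14 members were called in both, all in the same direction. Of these, 8 were higher in CM (Cbx5, Dnmt3a, Dnmt3l, Hdac9, Kdm5c, Kdm6b, Kdm7a and Pcgf3) and 6 lower (Asxl2, Cbx7, Hdac7, Kdm2b, Setd3 and Setd7). These were 77.8% of the WT calls and 60.9% of the KO calls, where 78.4 and 76.6% of all called genes were shared. A further 4 members were called in WT only and 9 in KO only, and all 13 had the same sign in the other genotype. That split does not show a difference between genotypes, since the interaction of genotype and medium called 0 members. Same-numbered WT libraries deviated together, with r up to 0.47 between media, and the closest library of another number gave r up to 0.46. With the replicate number as a block within each genotype, 31 members were called in WT, 11 higher and 20 lower. In WT that fit called 49.4% of all genes, 25.4% higher and 24.0% lower. It held all 18 members called in WT without the block and 13 more, 2 higher and 11 lower. In KO the same fit called 30 members, 13 higher and 17 lower, against 23 without the block, and 6674 of all 13311 genes. Same-numbered KO libraries did not deviate together (r = 0, -0.04 and 0.05). Block values for WT are given below beside the members named, and "did not pass" refers to the fit without the block. With library totals in place of TMM factors the WT calls became 7 higher and 25 lower and the KO calls 7 higher and 23 lower. Of all genes, 41.0% were then called in WT (14.7% higher and 26.3% lower) and 41.8% in KO (14.6% higher and 27.2% lower). The median of all genes was then -0.09 in WT and -0.12 in KO.

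**Figure D1:**
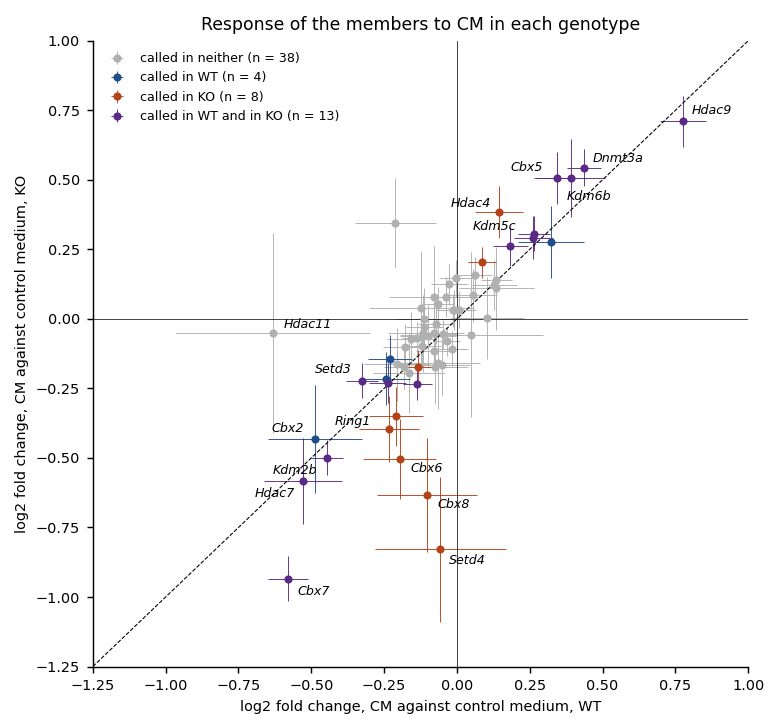
Log2 fold change in CM against control medium in WT (horizontal axis) and KO (vertical axis) for 63 tested members, with SE bars; Dnmt3l, at 2.12 and 2.17, is off the scale. Points in purple were called in both genotypes; the dashed line marks equal changes. Hdac9 and Dnmt3a lie at the upper right, Cbx7 at the lower left, and Cbx6, Cbx8 and Setd4 lie below the line.

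Other cell features changed with the medium. All 20 genes of a list of mitotic regulators were higher in CM in each genotype, with medians of 1.61 in WT and 1.70 in KO on the log2 scale. The 5 monocyte markers summed to 40.5 to 52.3 CPM in WT control libraries and 189 to 250 CPM in WT CM libraries, with similar values in KO (47.1 to 54.0 and 248 to 286). Of these 5, 3 were called higher in CM in each genotype. In each genotype 3 stayed below 1 CPM in all control libraries and 2 in all CM libraries. The 8 macrophage markers gave 2 higher and 2 lower in CM in each genotype. The part of proliferating or less mature cells in the responses of the chromatin modifiers was not tested. In bulk RNA, fewer cells of a type and less RNA per cell cannot be told apart.

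**Figure D2:**
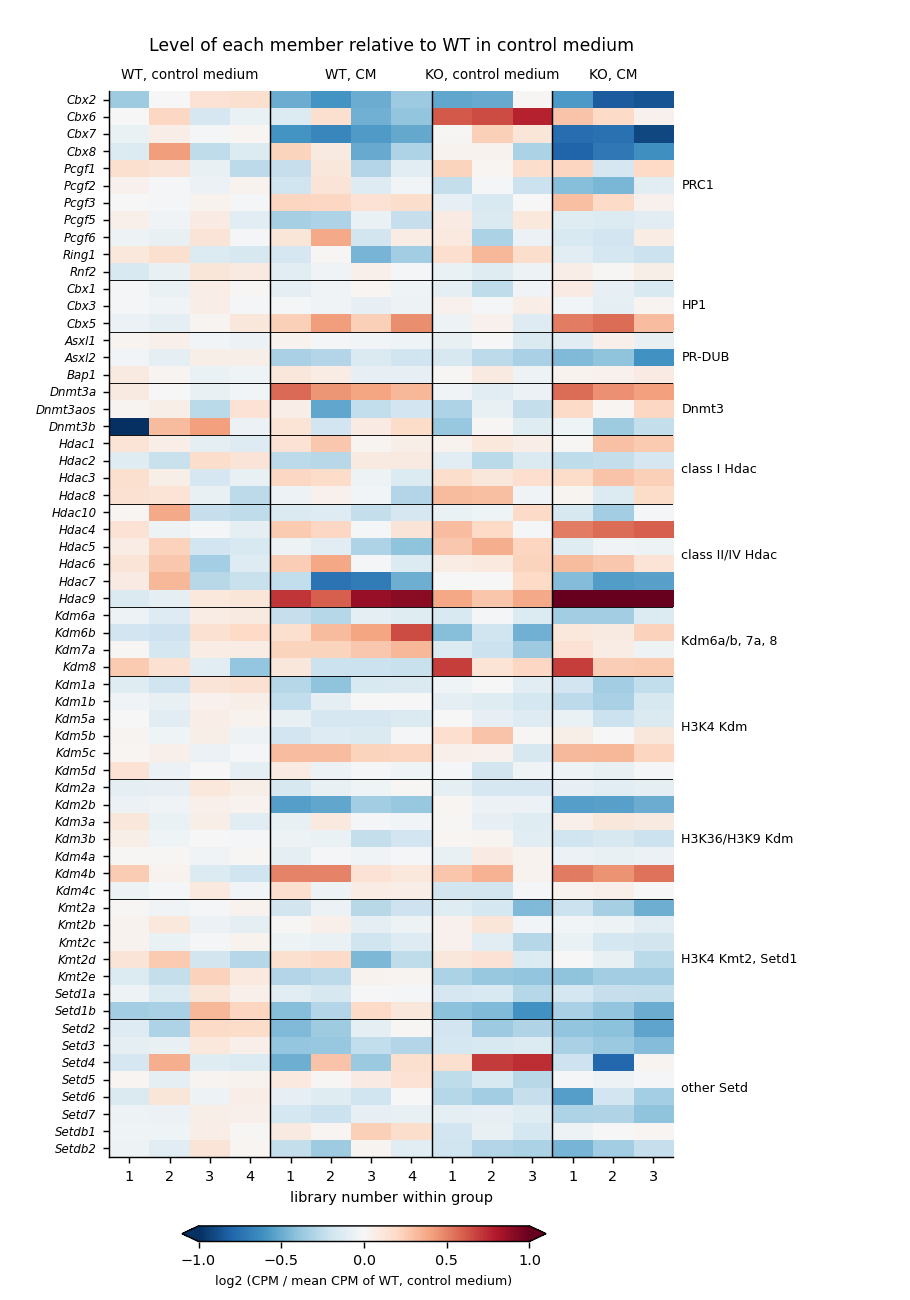
Each row is a member and each column a library; colour gives the log2 ratio of its CPM to the mean CPM of WT in control medium, limited to 1 in either direction. Shown are 62 members with a mean of 1 CPM or more in WT control medium, by role. Cbx7, Kdm2b and Hdac7 are lower and Hdac9, Dnmt3a and Cbx5 higher in all CM columns, and Setd1b and Kmt2e separate WT libraries 3 and 4 from 1 and 2.

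Among the 12 PRC1 subunits, most calls were toward lower levels in CM and most of these were chromobox genes. In WT 1 subunit was higher and 3 lower, and in KO 1 higher and 5 lower, with median log2 fold changes of -0.15 and -0.26. Of all genes, 19.3% were called higher and 18.0% lower in WT, and 20.0 and 18.2% in KO. Cbx7, the H3K27me3 reader associated with self-renewing and resting cells, fell most clearly. Its levels in WT were 15.9, 17.4, 16.4 and 16.9 CPM in control medium and 10.98, 10.6, 11.3 and 11.7 CPM in CM. In KO they were 16.8, 19.7 and 18.1 CPM in control medium and 9.84, 9.91 and 8.87 CPM in CM. Every CM library was below every control library of either genotype. The log2 fold changes were -0.58 ± 0.07 (adjusted p = 7.16e-06) in WT and -0.93 ± 0.08 (adjusted p = 2.45e-07) in KO. The larger fall in KO did not pass the interaction test (-0.35 ± 0.11, unadjusted p = 0.00483, adjusted p = 0.375). All 7 Cbx7 exons with 50 counts or more in all were lower in CM in each genotype, and 100 bases (1.5%) of its exons overlap Apobec3 on the other strand.

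Cbx6 and Cbx8 are further chromobox subunits of canonical PRC1, and each was called lower in CM in KO cells. For Cbx6 the libraries gave 17.3, 17.8 and 19.4 CPM in KO control medium and 13.8, 12.9 and 11.7 CPM in KO CM, and 11.4, 13.1, 10.1 and 10.8 against 10.3, 12.7, 8.12 and 8.63 CPM in WT. The KO groups did not overlap and the WT groups did, with changes of -0.50 ± 0.14 (adjusted p = 0.0112) in KO and -0.20 ± 0.12 (adjusted p = 0.243) in WT. Cbx8, at 3.48 to 8.12 CPM over all libraries, changed by -0.63 ± 0.20 (adjusted p = 0.0224) in KO and -0.10 ± 0.17 (adjusted p = 0.683) in WT. Both calls rested on single libraries: Cbx6 was lost in KO without KO CM library 3 (adjusted p = 0.0527), and Cbx8 without KO control 1, KO control 2, KO CM 1 or KO CM 2 (at most 0.0737). In WT, Cbx6 was called lower without WT CM library 2 (0.0276) and with the replicate block (0.0428). Of the exons with 50 counts or more in all, 5 of 5 were lower in CM in KO for each of Cbx6 and Cbx8.

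Cbx2, a chromobox protein best known from development, was the least expressed PRC1 subunit. It had 1.65, 2.11, 2.33 and 2.37 CPM in WT control medium and 1.504, 1.401, 1.497 and 1.65 CPM in WT CM. The KO values were 1.47, 1.49 and 2.13 and 1.42, 1.19 and 1.16 CPM. The lowest WT control library was level with the highest WT CM library, and the changes were -0.49 ± 0.16 (adjusted p = 0.0265) in WT and -0.43 ± 0.19 (adjusted p = 0.0965) in KO. The WT call was lost on leaving out WT control 3, WT control 4, WT CM 2 or WT CM 3 (adjusted p = 0.0558 to 0.0806) and with WT libraries 1 and 2 only (adjusted p = 0.309).

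Of the E3 ligases, Ring1 was called in KO and Rnf2 in neither genotype. Ring1 had 20.3, 21.03, 17.1 and 16.8 CPM in WT control medium and 16.7, 18.9, 13.6 and 14.8 CPM in WT CM, a change of -0.23 ± 0.10 (adjusted p = 0.0863) that was called with the replicate block (adjusted p = 0.00518). In KO it fell from 21.1, 23.6 and 21.3 to 17.4, 16.6 and 16.2 CPM, a change of -0.40 ± 0.12 (adjusted p = 0.0148), a call that was lost without KO control library 2 (adjusted p = 0.065) or KO CM library 3 (0.0523) and on the most-counted exon alone (0.114). Its paralog Rnf2 had 29.9, 31.4, 36.1 and 35.2 CPM and 30.9, 32.3, 34.3 and 32.8 CPM in WT control medium and CM. In KO the Rnf2 values were 31.7, 30.5 and 32.1 and 34.7, 33.4 and 34.6 CPM, with changes of -0.03 ± 0.06 (adjusted p = 0.798) in WT and 0.12 ± 0.07 (adjusted p = 0.211) in KO. Pcgf1, the ring finger partner of the Kdm2b complex, overlapped between all groups. It had 10.9, 10.7, 9.29 and 8.16 and 8.32, 10.6, 7.99 and 9.08 CPM in WT and 11.4, 9.91 and 11.03 and 11.3, 8.698 and 11.2 CPM in KO, with changes of -0.12 ± 0.12 (adjusted p = 0.482) and -0.05 ± 0.14 (adjusted p = 0.802).

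A pair of ring finger genes of variant PRC1 moved in opposite directions. Pcgf3 rose from 25.8, 25.7, 26.4 and 25.5 to 30.01, 29.8, 28.5 and 29.2 CPM in WT and from 24.4, 23.2 and 25.8 to 31.9, 29.5 and 26.6 CPM in KO, without overlap in either genotype. The changes were 0.18 ± 0.06 (adjusted p = 0.0255) and 0.26 ± 0.07 (adjusted p = 0.00806). The WT call was lost without WT control library 4 or WT CM library 1 or 2 (adjusted p at most 0.0625), and with library totals the calls were lost in both genotypes (0.209 and 0.0998). In WT it was also lost with WT libraries 1 and 2 only (0.0851) and with 3 and 4 only (0.175). Pcgf5 was lower in CM in WT, 15.2 to 18.2 against 17.8 to 20.3 CPM, a change of -0.23 ± 0.08 (adjusted p = 0.0272), and differed by -0.15 ± 0.09 (adjusted p = 0.219) in KO. Its WT call was lost on leaving out WT control 1, WT control 3, WT CM 1 or WT CM 2 (adjusted p at most 0.0771), on the most-counted exon (0.102), with limma-voom (0.0701) and with WT libraries 3 and 4 only (-0.14, 0.309). Pcgf2 and Pcgf6 did not pass in any comparison.

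Kdm2b, which joins PRC1 to unmethylated CpG islands and whose long form demethylates H3K36, fell in both genotypes. WT libraries had 67.1, 68.3, 72.3 and 71.7 CPM in control medium and 47.6, 48.8, 54.9 and 53.8 CPM in CM. KO libraries had 70.95, 67.1 and 67.01 and 47.7, 47.98 and 49.4 CPM. The control and CM libraries did not overlap, and the changes were -0.45 ± 0.05 (adjusted p = 8.71e-06) in WT and -0.50 ± 0.06 (adjusted p = 1.37e-05) in KO. The calls stood without each library in turn and in each of the 14 alternative fits. The 2 starts printed above give a long form with the demethylase domain and a short form without it. All 11 exons found in the long form only were lower in CM in each genotype, with a median of 1.00 CPM in WT control medium and 0.745 CPM in WT CM. So were all 10 exons that both forms contain (2.54 and 1.90 CPM). The first exon of the short form, with 495 counts in all, had 0.528 and 0.623 CPM in WT and 0.858 and 0.467 CPM in KO. The last exon is listed with 2 ends 1 base apart and equal counts, and both entries stand in the Kdm2b sum.

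Heterochromatin protein 1, the reader of H3K9 methylation, comprises Cbx1, Cbx3 and Cbx5, which share the Cbx name but not PRC1. Cbx5 rose, from 16.3, 15.8, 17.2 and 18.3 to 19.9, 22.5, 19.96 and 23.4 CPM in WT and from 16.3, 17.4 and 15.5 to 24.1, 24.9 and 20.9 CPM in KO. All CM libraries were above all control libraries of their genotype, and the changes were 0.34 ± 0.08 (adjusted p = 0.00283) and 0.51 ± 0.09 (adjusted p = 4.21e-04). Cbx1 and Cbx3 stayed within 44.9 to 59.5 CPM in all libraries and did not pass in any comparison. Their log2 fold changes in CM were -0.04 ± 0.06 and -0.05 ± 0.05 in WT and 0.08 ± 0.07 and -0.06 ± 0.05 in KO.

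In the complex that removes ubiquitin from histone H2A, the Asxl2 subunit changed and the others did not pass. Asxl2 had 63.2, 60.3, 67.2 and 67.3 CPM in WT control medium and 51.6, 52.7, 58.4 and 56.1 CPM in WT CM. KO cells had 57.6, 53.8 and 51.6 and 47.6, 48.9 and 42.5 CPM. The groups of each genotype did not overlap, and the changes in CM were -0.24 ± 0.06 (adjusted p = 0.00732) in WT and -0.23 ± 0.07 (adjusted p = 0.0209) in KO. The KO call was lost without KO control library 1 (adjusted p = 0.0981) or KO CM library 3 (0.104). The catalytic subunit Bap1 had 77.2, 73.9, 69.2 and 70.3 and 78.4, 76.6, 68.6 and 68.5 CPM in WT control medium and CM, and 73.3, 77.4 and 70.2 and 74.4, 74.9 and 76.8 CPM in KO. Asxl1, the paralog of Asxl2 in the same complex, had 56.4, 57.2, 54.3 and 53.05 and 56.7, 54.4, 54.2 and 53.7 CPM in WT and 52.4, 55.3 and 50.1 and 51.5, 57.3 and 52.4 CPM in KO. Their groups overlapped, with changes of 0.01 ± 0.06 (adjusted p = 0.945) and 0.03 ± 0.07 (adjusted p = 0.741) for Bap1 and -0.01 ± 0.05 (adjusted p = 0.877) and 0.03 ± 0.06 (adjusted p = 0.733) for Asxl1.

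Dnmt3a, the de novo DNA methyltransferase, rose in CM in both genotypes. WT libraries had 149, 139.9, 132 and 137 CPM in control medium and 206, 189, 184 and 176 CPM in CM. KO libraries had 136, 129.5 and 134 and 205, 192 and 185 CPM. Control and CM libraries did not overlap, and the changes were 0.44 ± 0.06 (adjusted p = 1.60e-05) and 0.54 ± 0.07 (adjusted p = 8.04e-06), kept without each library in turn and in each of the 14 alternative fits. All 23 exons with 50 counts or more in all were higher in CM in each genotype. They include 5 exons upstream of the start of the short form (median 2.30 and 3.76 CPM in WT control medium and CM) and 17 downstream of it (4.23 and 5.71 CPM).

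The other Dnmt3 genes were low. Dnmt3b, the second de novo enzyme, had 0.586 to 1.66 CPM over all libraries and did not pass in any comparison. Dnmt3l, a catalytically inactive cofactor of both enzymes, had 0, 0.039, 0.049 and 0.06 CPM in WT control medium and 0.1, 0.345, 0.144 and 0.158 CPM in WT CM, and 0.091, 0 and 0.091 and 0.152, 0.255 and 0.382 CPM in KO. It was called higher in both genotypes (adjusted p = 0.0228 and 0.0331), but at a handful of counts a library its fold change is not a measure of size. The KO call was lost without KO control library 2 (adjusted p = 0.114) or KO CM library 2 (0.0605) or 3 (0.14), and without a filter or with all exon entries (0.059 and 0.0528), and the WT call with WT libraries 1 and 2 or 3 and 4 only and with limma-voom (adjusted p up to 0.185). The antisense transcript Dnmt3aos, which shares 133 bases with Dnmt3a exons, had 1.85 to 3.07 CPM and did not pass.

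Of the 11 histone deacetylases, the 4 class I enzymes did not pass in any comparison. Among the 7 class II and IV genes, 1 was called higher and 1 lower in CM in WT, and 2 and 2 in KO. Of all genes, 37.3% were called in WT and 38.1% in KO. Hdac1, Hdac2, Hdac3 and Hdac8 changed by -0.08 to 0.13 in WT and by -0.17 to 0.12 in KO on the log2 scale, and Hdac1 was called higher in WT with the replicate block (adjusted p = 0.034). Hdac9, a class IIa corepressor of MEF2 factors, had the largest rise of all well-expressed members. It had 15.7, 16.2, 18.7 and 18.96 CPM in WT control medium and 28.6, 26.3, 31.9 and 32.4 CPM in WT CM. In KO it had 22.8, 21.1 and 22.6 and 36.8, 37.2 and 34.7 CPM. Every CM library lay above every control library of either genotype, and the changes were 0.78 ± 0.08 (adjusted p = 1.37e-06) in WT and 0.71 ± 0.09 (adjusted p = 1.72e-05) in KO. The call stood without each library in turn and in each of the 14 alternative fits.

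The Hdac9 counts came mostly from the exons of its short form, which ends before the deacetylase domain. In WT control medium the 11 exons shared with the short form had a median of 0.921 CPM and the last exon of the short form had 5.37 CPM. The 13 internal exons of the deacetylase end had a median of 0.0252 CPM, each with 81 counts or fewer over all 14 libraries. All 11 shared exons were higher in CM in each genotype, with medians of 1.55 CPM in WT CM, 1.18 CPM in KO control medium and 1.87 CPM in KO CM. The last exon of the short form, which contains 1 of the 11, was also higher, at 8.98, 6.28 and 10.3 CPM in those groups. Of all 19 Hdac9 exons with 50 counts or more in all, 17 were higher and 2 lower in CM in WT. In KO 18 were higher and 1 lower. An exon of 290 bases, with 52 counts in all, was lower in both genotypes. It had 0.13 and 0.0091 CPM in WT and 0.0974 and 0.028 CPM in KO. No position was assigned to it, so whether it follows the printed Hdac9 window is not shown. The exon views of Hdac9, Kdm2b and Dnmt3a were chosen after their values were seen, and no test was run on exons.

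**Figure D3:**
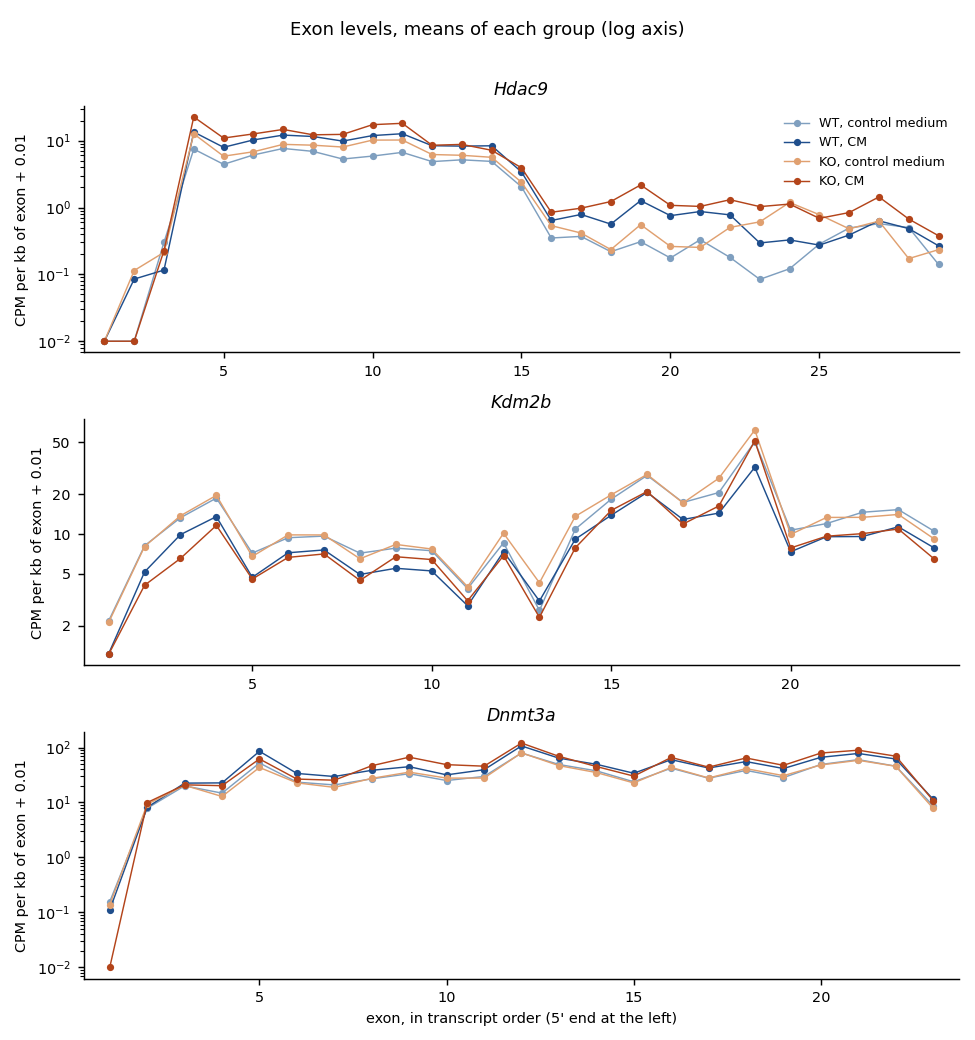
Group means of CPM per kb of exon, plus 0.01, on a log axis for 29 exons of Hdac9, 24 of Kdm2b and 23 of Dnmt3a, from the 5′ end at the left. In Hdac9 the shared exons are at positions 4 to 14, the last exon of the short form is at 15 and the deacetylase end starts at 16, where all 4 groups drop; in Kdm2b positions 1 to 12 hold the exons before the short-form start. A fragment that crosses several short exons can be counted in each, which raises short exons on this axis.

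The other class IIa members did not move as one. Hdac7 was lower in CM, with 18.02, 21.5, 14.1 and 14.7 CPM in WT control medium and 14.4, 10.2, 10.49 and 12.2 CPM in WT CM. In KO it had 17.04, 17.1 and 19.6 and 12.6, 11.6 and 11.7 CPM. WT CM library 1 reached above the lowest WT control library, the KO groups did not overlap, and the changes were -0.53 ± 0.13 (adjusted p = 0.00509) and -0.58 ± 0.15 (adjusted p = 0.00717). Hdac4 had 20.97, 19.4 and 16.8 and 24.05, 24.9 and 25.6 CPM in KO control medium and CM, a change of 0.38 ± 0.10 (adjusted p = 0.00465) without overlap. In WT it had 18.7, 16.3, 16.7 and 15.9 and 20.3, 19.5, 16.7 and 18.5 CPM, which overlapped, with a change of 0.15 ± 0.08 (adjusted p = 0.186). The difference between the genotypes' responses did not pass (0.24 ± 0.13, adjusted p = 0.6898). Hdac5, the class IIa gene with most counts, had 216 to 239 and 172 to 182 CPM in KO control medium and CM. It changed by -0.35 ± 0.11 (adjusted p = 0.017) in KO, a call lost without KO control library 2 or KO CM library 1 (adjusted p at most 0.0673) and on the most-counted exon (0.1), and by -0.21 ± 0.09 (adjusted p = 0.089) in WT, called with the replicate block (adjusted p = 0.000766). Hdac6 and Hdac10 of class IIb and Hdac11 of class IV did not pass in any comparison, and Hdac11 stayed at 0.207 to 0.815 CPM.

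Of the H3K27 demethylases, Kdm6b was higher in CM and Kdm6a stood at the edge of the threshold. Kdm6b had 10.1, 9.96, 12.8 and 13.2 CPM in WT control medium and 12.9, 14.3, 15.1 and 18.1 CPM in WT CM. The KO values were 8.59, 10.05 and 8.24 and 12.4, 12.3 and 13.5 CPM. The WT groups overlapped and the KO groups did not, with changes of 0.39 ± 0.12 (adjusted p = 0.0162) and 0.51 ± 0.14 (adjusted p = 0.00895). The WT call was lost without WT CM library 4 (adjusted p = 0.0657) and on the most-counted exon alone (0.347). Kdm6a, the X-linked paralog that acts within Kmt2c and Kmt2d complexes, had 52.7, 49.8, 57.4 and 57.9 and 46.5, 44.6, 50.9 and 49.97 CPM in WT control medium and CM, and 48.9, 53.9 and 49.5 and 42.8, 42.7 and 49.5 CPM in KO. Its changes were -0.18 ± 0.07 (adjusted p = 0.0504) in WT and -0.17 ± 0.08 (adjusted p = 0.107) in KO. With the replicate block the WT change of Kdm6a was called (adjusted p = 0.008), as it was with DESeq2 (0.0364) and limma-voom (0.0145). Its CM values were below the control values within WT libraries 1 and 2 and within 3 and 4. The WT change was called without WT control library 2 (adjusted p = 0.0221), WT CM library 3 (0.0389) or 4 (0.0498) or KO CM library 3 (0.0364), and without the last the KO change was called too (0.0343).

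Kdm7a, a demethylase of H3K9 and H3K27, rose in both genotypes. It had 96.3, 84.8, 101 and 101 CPM in WT control medium and 112, 112, 115 and 120.2 CPM in WT CM, and 87.2, 82.4 and 74.5 and 106, 101 and 92.3 CPM in KO. No groups overlapped within a genotype, and the changes were 0.26 ± 0.07 (adjusted p = 0.00568) and 0.29 ± 0.08 (adjusted p = 0.00742). With library totals the KO change was no longer called (adjusted p = 0.0621). Kdm8, a JmjC protein of low level, had 1.45 to 3.07 CPM over all libraries and did not pass in any comparison.

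**Figure D4:**
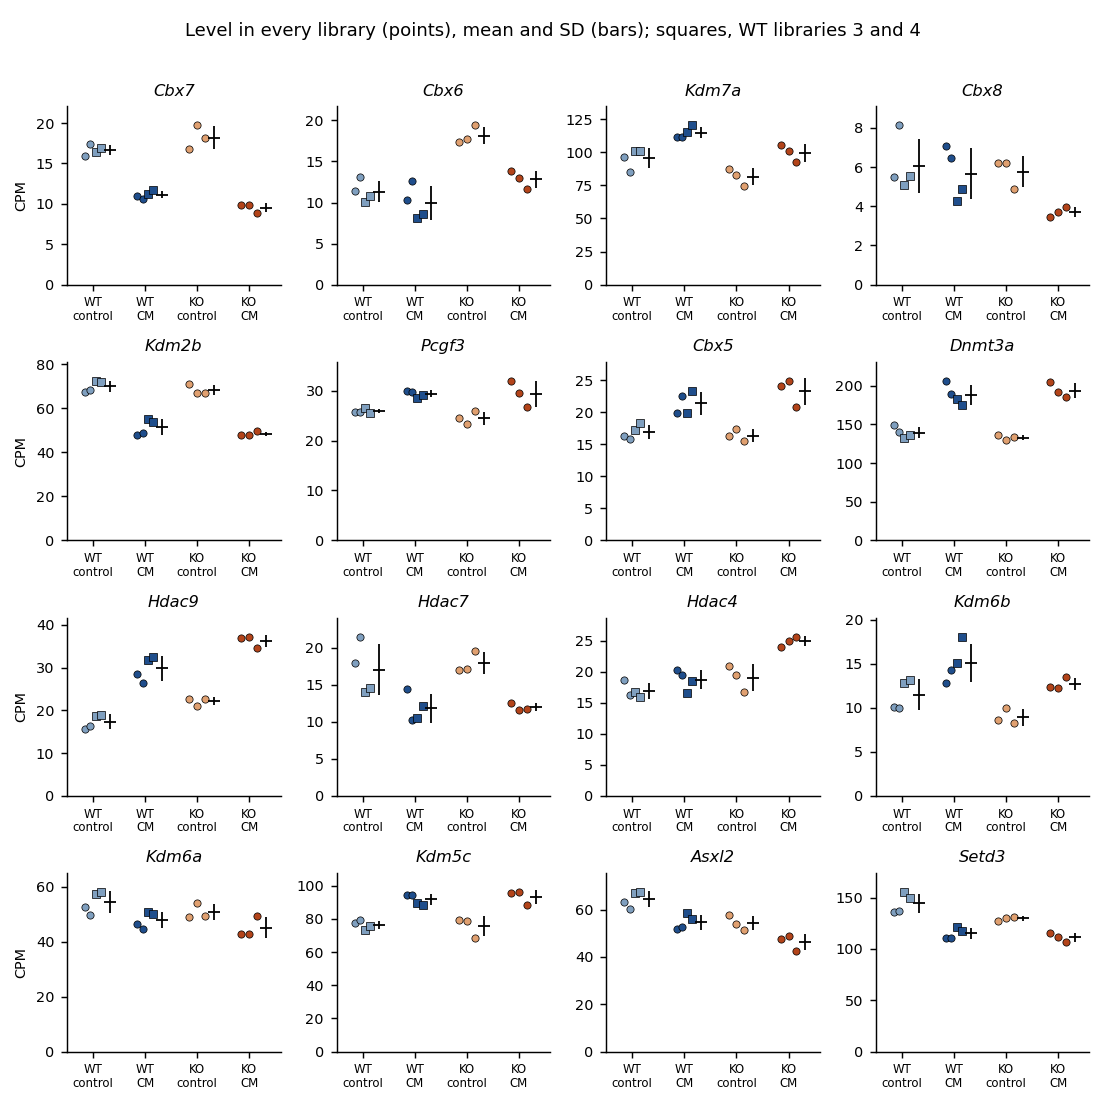
CPM of 16 members in every library (points; linear axes from 0), with the mean and SD of each group at its right; squares are WT libraries 3 and 4. Cbx7 and Kdm2b are lower and Dnmt3a and Hdac9 higher in CM in both genotypes. KO control libraries of Cbx6 (17.3 to 19.4 CPM) lie above all other groups.

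Of the 6 H3K4 demethylases, Kdm5c was called in both genotypes. It had 77.4, 79.1, 73.2 and 75.8 CPM in WT control medium and 94.6, 94.4, 89.4 and 88.7 CPM in WT CM. In KO it had 79.2, 78.7 and 68.5 and 95.6, 96.1 and 88.4 CPM. No CM library reached down to a control library of its genotype, and the changes were 0.26 ± 0.06 (adjusted p = 0.00127) and 0.31 ± 0.06 (adjusted p = 0.00126). On the most-counted exon alone the KO change was not called (adjusted p = 0.115). Kdm5d, its Y-linked homolog, did not follow. It had 41.4, 36.04, 37.3 and 35.004 and 39.6, 35.9, 36.9 and 36.4 CPM in WT and 36.9, 32.97 and 36.5 and 36.1, 35.5 and 37.1 CPM in KO, with changes of -0.01 ± 0.06 (adjusted p = 0.929) and 0.03 ± 0.07 (adjusted p = 0.7601). It was counted in every library, while Xist stayed at 0.051 CPM or below.

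Kdm1a, the flavin-dependent H3K4 demethylase of the CoREST complex, had 63.8, 60.3, 75.8 and 77.1 CPM in WT control medium and 56.8, 52.5, 62.4 and 62.5 CPM in WT CM. In KO it had 67.4, 69.6 and 64.5 and 60.7, 54.5 and 58.5 CPM. The WT groups overlapped, and the changes were -0.24 ± 0.08 (adjusted p = 0.0291) in WT and -0.21 ± 0.09 (adjusted p = 0.0888) in KO. Within WT libraries 1 and 2 and within 3 and 4 the CM values were below the control values of the same libraries. The WT call was lost on leaving out WT control 3, WT control 4, WT CM 1 or WT CM 2 (adjusted p at most 0.0992), with WT libraries 1 and 2 only (0.0617), with only the groups compared (0.0736) and on the most-counted exon alone (0.202). Kdm1b, Kdm5a and Kdm5b did not pass in any comparison, though Kdm5a was called in WT without WT control library 2, WT CM library 1 or KO CM library 2 (adjusted p as low as 0.0182) and with the replicate block (0.0124).

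Besides Kdm2b, 2 of the demethylases of H3K36 and H3K9 were called. Kdm4b, an H3K9 and H3K36 demethylase, had 29.9, 25.8, 22.9 and 21.8 CPM in WT control medium and 35.4, 35.4, 27.8 and 26.9 CPM in WT CM. In KO it had 30.4, 31.8 and 25.7 and 35.9, 34.2 and 36.5 CPM. Libraries 3 and 4 were lower than 1 and 2 in both WT media, CM was above control medium within each pair, and the changes were 0.32 ± 0.11 (adjusted p = 0.0349) in WT and 0.28 ± 0.13 (adjusted p = 0.108) in KO. The WT call was lost on leaving out WT control 3, WT control 4, WT CM 1 or WT CM 2 (adjusted p at most 0.111), with library totals (0.112), on the most-counted exon (0.127) and with only the groups compared (0.0824). Kdm3b, an H3K9 demethylase, had 135, 125, 129 and 129 and 125, 124, 109.9 and 114 CPM in WT control medium and CM and 131, 132 and 119.8 and 113, 116 and 111 CPM in KO. Its changes of -0.13 ± 0.05 (adjusted p = 0.06) in WT and -0.17 ± 0.06 (adjusted p = 0.037) in KO were small, and the KO call was lost without KO control library 1 or 2 or any KO CM library (adjusted p at most 0.127), without a filter (0.0588) and on the most-counted exon (0.142). The WT change of Kdm3b was called with the replicate block (adjusted p = 0.0117). Kdm2a, Kdm3a, Kdm4a and Kdm4c did not pass, though Kdm4c was called in KO without KO control library 3 (0.0359).

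None of the 7 genes grouped here by name as H3K4 methyltransferases (Kmt2a to Kmt2e, Setd1a and Setd1b) passed in any comparison. Their log2 fold changes in CM ran from -0.18 to -0.02 in WT and from -0.16 to 0.08 in KO. All 7 were well expressed, with group means of 44.7 to 187 CPM. Kmt2a was called lower in CM in WT without WT CM library 2 or KO control library 3 (adjusted p as low as 0.0361), and with the replicate block Kmt2a (0.00383) and Kmt2e (0.0282) were called lower. Setd1a was called lower in KO in control medium without WT control library 2 (adjusted p = 0.0294). Setd1a shares 51.8% of its exon bases with Gm49388 on the same strand, so its counts are uncertain.

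Among the 8 other Setd genes, Setd3 had the highest level per length of all members, 49.0 CPM per kb of listed exon in WT control medium. Setd3, the actin histidine methyltransferase, fell from 136, 137, 155 and 149.7 to 110.5, 111, 122 and 118 CPM in WT and from 128, 130.3 and 132 to 115, 112 and 107 CPM in KO. The groups did not overlap, and the changes were -0.33 ± 0.05 (adjusted p = 1.64e-04) and -0.22 ± 0.06 (adjusted p = 0.0103), kept without each library in turn and in each of the 14 alternative fits. Setd7, which methylates H3K4 and several other proteins, had 99.3, 98.7, 107 and 106 and 90.8, 88.6, 97.3 and 97.6 CPM in WT control medium and CM. In KO it had 96.4, 96.9 and 94.3 and 82.999, 83.4 and 78.04 CPM, with changes of -0.14 ± 0.05 (adjusted p = 0.0411) in WT and -0.23 ± 0.06 (adjusted p = 0.00409) in KO. The WT call was lost without any of 8 libraries (WT control library 3 or 4, WT CM library 1 or 2, any KO control library or KO CM library 1; adjusted p at most 0.112), without a filter, within either set of WT libraries and with only the groups compared (0.0632 to 0.0842).

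Setd5 and Setd4 were called in KO only. Setd5 had 99.1, 106 and 97.4 and 117, 114 and 117 CPM in KO control medium and CM, and 119.9, 111, 120.3 and 121 and 127, 119, 125 and 131 CPM in WT. The changes were 0.20 ± 0.06 (adjusted p = 0.00838) in KO and 0.09 ± 0.05 (adjusted p = 0.178) in WT, and the KO call was lost with library totals or on the most-counted exon (adjusted p up to 0.321). Setd4, at 0.936 to 2.69 CPM, changed by -0.83 ± 0.26 (adjusted p = 0.0205) in KO and -0.06 ± 0.22 (adjusted p = 0.876) in WT. Its KO call was lost without KO control library 2 or 3 or KO CM library 2 (adjusted p at most 0.096) and on the most-counted exon (0.0992). Setd2, which trimethylates H3K36, Setd6, Setdb1 and Setdb2 did not pass in any comparison. With the replicate block Setd2 (adjusted p = 0.0021) and Setdb2 (0.0426) were called lower and Setdb1 (0.00955) higher in CM in WT.

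Few of these genes were called between KO and WT, and their share was close to that of all genes. In control medium 4 of 65 were called between KO and WT, where 5.32% of all tested genes were called, 2.82% higher and 2.5% lower. Cbx6 and Hdac9 were higher in KO, and Asxl2 and Setd5 lower. In CM 3 of 65 were called, where 4.59% of all genes were, 3.1% higher and 1.49% lower. Among them Hdac4 was higher in KO and Setd7 lower. Of 20 mitotic regulators, 11 were called higher in KO in control medium and 15 in CM. The macrophage markers summed to 21266 to 21950 CPM in KO and 30219 to 35653 CPM in WT control medium. Of the 8 markers, 1 was called lower in KO in control medium. This was Lyz2, the locus that carries Cre, with means of 10221 CPM in KO and 21891 CPM in WT. Adgre1 (3687 against 3382 CPM) and Csf1r (5077 against 4984 CPM) were not called. The part of mitotic regulators and markers in the differences between genotypes was not tested. At an unadjusted p below 0.05 there were 20 members in each medium, where 25.6% of all genes reached it in control medium and 23.4% in CM. Other tools called more, of members and of all genes. DESeq2 called 11 members in control medium (11.3% of all genes) and 7 in CM (9.21%), and limma-voom 31 (35.7%) and 8 (13.5%). With WT libraries 1 and 2 only, 2 members were called in control medium (3.85% of all genes) and 2 in CM (3.58%). With WT libraries 3 and 4 only, 33 were called in control medium (38.9% of all genes) and 25 in CM (35.5%). The count in control medium depends on single libraries, for members and for all genes (708 of 13311 with all libraries). It was 12 without WT control library 2, where 1769 of all genes were called. It was 2 without WT control library 3 (285 of all genes) or 4 (330) or KO control library 2 (224). It was 1 without KO control library 1 (282) and 0 without KO control library 3 (244). In CM it was 5 without WT control library 2 (714 of all genes, against 611 with all libraries). It was 1 without WT CM library 3 (292) or 4 (259) or KO CM library 2 (363), and 0 without KO CM library 3 (217).

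Cbx6 was the member with the largest called difference between the genotypes. In the library values given above, the 3 KO control libraries (17.3 to 19.4 CPM) lay above the 4 WT control libraries (10.1 to 13.1 CPM). The difference was 0.68 ± 0.13 (adjusted p = 0.00947) in control medium and 0.37 ± 0.13 (adjusted p = 0.124) in CM, where the groups overlapped. With WT libraries 1 and 2 only it was 0.57 in control medium and still called, and it was called in all 13 alternative fits. Without KO control library 3 it was not called (0.63, adjusted p = 0.0521), and without WT CM library 2 the difference in CM was called (0.51, adjusted p = 0.0242). Cbx6 shares 563 bases (5.3% of its exons) with Npcd on the same strand.

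Hdac9, besides its rise in CM, was called higher in KO cells in control medium. The KO control libraries (21.1 to 22.8 CPM) lay above the WT control libraries (15.7 to 18.96 CPM), and the KO CM libraries (34.7 to 37.2 CPM) above the WT CM libraries (26.3 to 32.4 CPM). The differences were 0.35 ± 0.09 (adjusted p = 0.0337) in control medium and 0.28 ± 0.09 (adjusted p = 0.0765) in CM. With WT libraries 1 and 2 only they were 0.47 and 0.41, and both were called. In control medium the call was lost without WT control library 1 or any KO control library (adjusted p = 0.0604 to 0.113), on the most-counted exon (0.156) and with only the groups compared (0.071).

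The calls of Hdac4, Asxl2, Setd5 and Setd7 also depended on single libraries. Hdac4 differed by 0.41 ± 0.09 (adjusted p = 0.0161) in CM and 0.17 ± 0.09 (adjusted p = 0.228) in control medium. It lost the call without WT CM library 3 or 4 or KO CM library 2 or 3 (adjusted p = 0.0513 to 0.0831) and with WT libraries 1 and 2 only (0.0782). Asxl2 differed by -0.25 ± 0.07 (adjusted p = 0.0477) in control medium and -0.24 ± 0.07 (adjusted p = 0.0607) in CM, with no overlap in either. The call in control medium was lost without 10 of the 14 libraries (WT control 1, 3 and 4, WT CM 2 and 4, all KO control, KO CM 1 and 2; adjusted p at most 0.164), and in CM the difference was called without WT control library 2 (0.0489). The Asxl2 call in control medium was kept in 5 of 13 alternative fits, and with WT libraries 1 and 2 only the differences were -0.18 (adjusted p = 0.176) and -0.17 (0.253). Setd5 differed by -0.23 ± 0.05 (adjusted p = 0.0219) in control medium, and Setd7 by -0.20 ± 0.05 (adjusted p = 0.0468) in CM. Setd5 lost the call without WT control library 3 or 4 or KO control library 1 or 3 (adjusted p at most 0.103), with WT libraries 1 and 2 only (-0.19, 0.0762) and with only the groups compared (0.0777). On its most-counted exon the Setd5 difference was -0.03 (adjusted p = 0.8). Setd7 kept its call without 4 of the 14 libraries (adjusted p at most 0.194 over all 14) and in 7 of 13 alternative fits, and its difference with WT libraries 1 and 2 only was -0.13 (adjusted p = 0.21).

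The interaction of genotype and medium asks whether KO cells respond otherwise to CM. With edgeR it called 0 of 65 members, as it called 0.0% of all tested genes, with 3 members at an unadjusted p below 0.05 (Cbx7, Dnmt3aos and Setd4). DESeq2 and limma-voom also called 0 members, where they called 84 and 27 of all 13311 genes tested. The 2 smallest p-values belonged to Cbx7, described above, and Dnmt3aos (0.56 ± 0.21, adjusted p = 0.512). Differences of response smaller than the intervals of these 14 libraries allow were not detectable.

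Part of the spread within WT followed the 2 sets of libraries. Of 65 tested members, 6 were higher and 8 lower by 0.2 or more on the log2 scale in WT libraries 3 and 4 than in 1 and 2, in both media. The same count was not made over all genes, so the split is not shown to be particular to these members. Setd1b, an H3K4 methyltransferase, had 51.3, 52.2, 82.2 and 75.7 CPM in WT control medium and 48.6, 53.4, 74.7 and 70.7 CPM in WT CM. Its KO libraries had 49.3, 48.1 and 42.9 and 52.3, 49.8 and 46.4 CPM, near WT libraries 1 and 2 and below 3 and 4. Kmt2e, Setd2, Hdac2, Kdm6b and Hdac9 were the other 5 that were higher. Kmt2d, Hdac6, Cbx8, Hdac5, Kdm4b, Ring1, Hdac3 and Cbx6 were lower, and Kmt2d had 80.1, 88.03, 64.6 and 60.3 CPM in WT control medium. For Setd1b the KO difference in control medium was -0.48 ± 0.17 (adjusted p = 0.102), and for Kmt2e it was -0.36 ± 0.11 (adjusted p = 0.0569). Neither passed, and the Kmt2e difference was called on leaving out WT control 1, WT control 2 or WT CM 1 (adjusted p as low as 0.0166), the Setd1b difference without WT control library 2 (0.0395). With WT libraries 1 and 2 only they were -0.14 for Setd1b (adjusted p = 0.334) and -0.17 for Kmt2e (0.0771). Depth moved with this split, and its part was not tested.

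**Figure D5:**
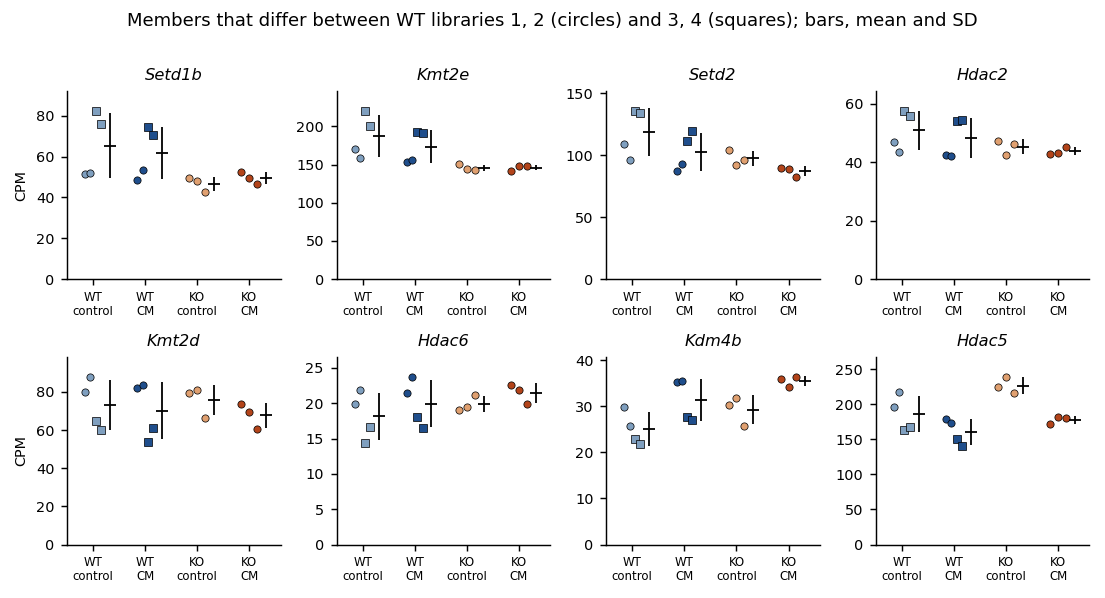
CPM of 8 members in every library (points; linear axes from 0), with group mean and SD; squares are WT libraries 3 and 4. In the upper row the squares lie above the circles in both WT groups and in the lower row below them, and KO libraries lie nearer the circles for Setd1b, Kmt2e and Hdac2.

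Neighbouring genes of the same pathways were called in both directions, and the counts of each list stand beside calls for 37.3% of all tested genes in WT and 38.1% in KO. Of 11 tested PRC2 genes, 2 were higher and 4 lower in CM in WT, and 2 higher and 3 lower in KO. Ezh2 itself, counted over all exons, rose by 0.63 ± 0.09 in WT and 0.55 ± 0.11 in KO on the log2 scale (19.8 to 26.3 against 31.4 to 38.6 CPM in WT). Phf19, a PRC2 accessory subunit that binds H3K36 methylation, rose by 1.23 ± 0.14 in WT and 1.33 ± 0.16 in KO. Of 11 further PRC1 genes, 1 was higher and 4 lower in WT, and 0 and 5 in KO. They include Rybp, a subunit of variant PRC1, which changed by -0.45 ± 0.06 and -0.33 ± 0.07, and Phc1, a subunit of canonical PRC1, by -0.51 ± 0.12 and -0.53 ± 0.14.

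Among 21 genes of HDAC corepressor complexes 1 was higher and 3 lower in WT, and 2 and 2 in KO. Of 17 other lysine methyltransferases 1 was higher and 4 lower in WT, and 1 and 1 in KO. Kmt5a, which writes H4K20 methylation in dividing cells, rose by 0.81 ± 0.09 and 1.03 ± 0.10, and Dot1l, the H3K79 methyltransferase, changed by -0.44 ± 0.06 in WT and -0.10 ± 0.07 in KO, where it did not pass (adjusted p = 0.302). Of 8 tested DNA methylation genes 2 were higher and 2 lower in WT, and 3 and 2 in KO. Of 6 PR-DUB partners, 2 were higher in each genotype and 0 lower. Of 11 COMPASS core genes, 1 was higher and 2 lower in WT, and 1 and 0 in KO. Of 7 sirtuins 2 were higher in WT, and 1 was higher and 1 lower in KO. The 12 histone acetyltransferases gave 1 higher and 2 lower in WT, and 1 and 1 in KO, and 11 other JmjC proteins 1 and 3 in WT, and 1 and 2 in KO. These gene lists were drawn up with earlier results of the same data known.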

How the data were processed

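RNA of 14 samples was sequenced from bone marrow-derived macrophages as 2 x 150 base paired reads from a stranded mRNA kit, per the labels' protocols. The submitters' processing notes name HISAT2 and mm10. The counting tool, the annotation, the strand setting and the treatment of reads that fit several places are not given in the sources used here, so genes with near-identical copies (Cbx3, Hdac1, Kdm5c and Kdm5d) are uncertain. The authors deposited whole-number read counts per exon, not normalized. Of 427386 exon entries, 196941 repeated another entry and were removed, and the counts of the other 230445 were summed per gene symbol.

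Genes were filtered with filterByExpr (minimum count 10, minimum total 15), which left 13311. TMM factors and edgeR 4.0.16 (R 4.3.3) gave quasi-likelihood F tests from 1 fit of 4 group means over all 14 libraries, with Benjamini-Hochberg adjustment over all genes tested and a threshold of 0.05. Every adjusted p is from edgeR unless another tool is named. SE was derived from the log2 fold change and its F value. DESeq2 1.42.0, limma-voom (limma 3.58.1), other scalings, filters, library sets and exon sums were run as alternatives, and each library was left out in turn. The procedure was tested on simulated data. WT libraries with the same number deviated together (r = 0.33, 0.35, 0.47 and 0.46 between media), which pairs them by the rule used here. The closest CM library of another number gave r = 0.31, 0.35, 0.46 and 0.37, so pairing by number is not shown. KO libraries with the same number did not deviate together (0, -0.04 and 0.05).

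Genes named with values in each library were those called between genotypes, those with the smallest p in each role group (up to 3 called in WT and 2 in KO), and a list of 11 (Kdm6a, Kdm6b, Kdm2b, Pcgf1, Ring1, Rnf2, Bap1, Asxl1, Dnmt3a, Kdm5c and Kdm5d). The naming rule for the members and the other lists were chosen with earlier results of these data known. Promoter windows, coordinates and sequences are from RefSeq (GRCm38.p6) and overlaps from GENCODE vM21. Of the genes tested, 1 member and 1 gene of the other lists are not reported here, though the counts over members and lists include them.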

Additional observations from a re-analysis of the deposited data

Results flagged for a closer look

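In 130 groups of 4 libraries (each tested member in each WT group), 5 had 1 library far from the other 3 by Dixon's test. Chance flags about 1 in 20 groups. WT control library 2 accounted for 3 of the 5. It had 8.12 CPM of Cbx8 where the others had 5.10 to 5.53, 2.07 CPM of Setd4 where the others had 1.43 to 1.48, and 111 CPM of Setd5 where the others had 120 to 121. Kdm4a had 81.8 CPM in WT control library 3 and 84.4 to 84.7 in the others. Kdm8 had 2.06 CPM in WT CM library 1 and 1.63 to 1.64 in the others.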

How the results depend on the processing

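No member value that passed the threshold, in the reported fit or under an alternative, had the opposite sign in the other. Of 8878 member values under an alternative, 412 that passed in neither changed sign. By threshold, 8463 stayed on their side of the threshold, 272 moved past it and 143 lost it. Below, the number of all genes called in the same fit stands in brackets, of 12512 to 13485 tested. The number of members called in the CM response of WT was 18 (4960). It became 32 with library totals (5458) and 31 with the replicate block within genotype (6574). It became 29 (6561) with WT libraries 3 and 4 set apart by a term. Between genotypes in control medium it was 4 (708), and became 2 on the most-counted exon (385) and 2 with WT libraries 1 and 2 (514). It became 33 with WT libraries 3 and 4 (5246) and 1 with only the groups compared (283). It became 11 with DESeq2 (1501) and 31 with limma-voom (4757). In CM it was 3 (611), and became 5 on the most-counted exon (430) and 5 with the term (923). It became 25 with WT libraries 3 and 4 (4791), 7 with DESeq2 (1226) and 8 with limma-voom (1794). The cause was not tested. Leaving out each library in turn gave 13 to 21 members for CM in WT (4498 to 4949). For CM in KO it gave 16 to 23 (4297 to 5218). For KO against WT it gave 0 to 12 in control medium (224 to 1769) and 0 to 5 in CM (217 to 721). With the replicate block over all libraries, the medium gave 25 members (5449) in WT cells and 25 (5591) in KO cells. Genotype gave 5 (826) in control medium and 3 (581) in CM, and the interaction gave 0 (0). With 3 KO libraries a group, differences near 0.2 on the log2 scale sit at the edge of detection.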
